A study of Mus musculus with 6 samples.

Results

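Under the name of neural long non-coding RNAs (lncRNAs), 9 genes were followed in embryonic mouse brains with and without Bahd1. They were Malat1, Neat1, Miat, Sox2ot, Rmst, Pantr1, Dlx6os1, Gas5 and Snhg11. The name is that of the list and does not limit them to neural cells. Members were the rows of the embryo table whose gene symbol is one of these 9, out of 53801 genes in all. The symbols of 8 lncRNAs matched 9 rows, and Rmst is not analysed here. Dlx6os1 has a second row, ENSMUSG00000098326, an annotated stretch of 146 bases with 2 counts over all embryos, which fell under the minimum of 10 summed counts. The other 8 rows were tested. Whole brains came from C57BL/6 embryos at stage E16.5, 3 homozygous for the Bahd1 knockout (Bahd1-KO, genotype Bahd1-/-) and 3 wild-type (Bahd1-WT, Bahd1+/+), with no other treatment or allele named. BAHD1 is a scaffold protein that brings repressive enzymes to chromatin, and the comparison asks whether its loss alters transcripts of the brain before birth. In a whole brain, fewer cells of a type and less RNA per cell cannot be told apart. Each library was made from RNA selected for poly(A) tails, and held between 61724000 and 91782802 counts.

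LncRNAs act in several ways. Malat1 and Neat1 stay in the nucleus, the first in nuclear speckles, where splicing factors gather, the second as the scaffold of paraspeckles. Miat, also called Gomafu, is a nuclear RNA of neurons that binds splicing regulators. Sox2ot, Pantr1 and Dlx6os1 are transcribed beside or across genes for transcription factors of the developing brain. Gas5 and Snhg11 are host genes, which carry small nucleolar RNAs (snoRNAs) in their introns, and Snhg11 is known from neurons. The GENCODE M21 annotation calls Snhg11 protein-coding and the other 7 tested genes lincRNA, antisense or processed transcript.

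Several of these RNAs carry a sequence that bears on how a poly(A)-selected library captures them or on which proteins bind them. All transcript sequences below are from GENCODE M21 (GRCm38), read in the direction of transcription. Malat1 (chr19:5795690-5802672, reverse strand) and Neat1 (chr19:5824708-5845478, reverse strand) lie 22.0 kb apart, and both are annotated as a single exon block. The long form of each is known to be cut at its end without receiving a poly(A) tail, and the end is protected by a triple helix of U-rich stretches with an A-rich one. The windows of 110 bases that end with the only AAGCAAAA of each transcript are shown here, with runs of at least 10 bases that both share, in the same order, in capitals.
Malat1: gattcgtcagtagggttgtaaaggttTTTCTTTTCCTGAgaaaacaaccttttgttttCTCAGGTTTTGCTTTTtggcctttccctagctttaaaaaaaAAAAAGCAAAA
Neat1: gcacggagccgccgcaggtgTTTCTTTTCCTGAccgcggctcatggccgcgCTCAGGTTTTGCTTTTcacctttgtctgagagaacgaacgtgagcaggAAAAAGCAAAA
The windows share 3 runs of 13, 16 and 11 bases, 40 of 110 bases in all. AAGCAAAA, searched on the transcript strand, occurs in the longest transcript of 7.16% of 13374 lncRNA genes. In Neat1 the window ends at base 20771, the last of the longest annotated transcript. In Malat1 it ends at base 6691 of 6983, so that 292 annotated bases follow it. These bases reach an AATAAA, the signal for adding a poly(A) tail, and so does the end of the annotated short form of Neat1 (3004 bases). The last 60 bases of both are given with that signal in capitals.
Malat1 annotated end: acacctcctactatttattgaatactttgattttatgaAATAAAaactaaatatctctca
Neat1 short form end: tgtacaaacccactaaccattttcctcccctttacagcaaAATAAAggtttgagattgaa
An AATAAA lies within the last 50 bases of the longest transcript of 29.8% of lncRNA genes.

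Miat (chr5:112213228-112229395, reverse strand) is known for copies of UACUAAC, the branch point sequence that the splicing factor SF1 binds. The longest Miat transcript (9163 bases) holds TACTAAC 6 times on the transcript strand, at bases 4941, 5041, 5066, 5589, 5603 and 5623, in the groups of 3 shown here with the motif in capitals.
Miat first cluster: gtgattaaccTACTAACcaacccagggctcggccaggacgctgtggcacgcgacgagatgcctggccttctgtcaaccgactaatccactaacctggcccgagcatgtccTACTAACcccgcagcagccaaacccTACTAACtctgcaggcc
Miat second cluster: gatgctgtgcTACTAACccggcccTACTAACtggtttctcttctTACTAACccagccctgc
Of 13374 lncRNA genes, 4.58% hold the motif in their longest transcript. Of the 210 with a transcript of at least 5000 bases, 18.1% hold it, and 1, Miat itself, holds it 6 times or more.

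Gas5 (chr1:161034422-161038539, forward strand) is known for a start rich in pyrimidines, the mark of RNAs whose translation follows cell growth, and as a target of nonsense-mediated decay. The bases around the later of its RefSeq starts (GRCm38.p6, chr1:161035126-161035205, forward strand) are shown with the transcribed part in capitals. An earlier RefSeq start is not shown.
Gas5 start: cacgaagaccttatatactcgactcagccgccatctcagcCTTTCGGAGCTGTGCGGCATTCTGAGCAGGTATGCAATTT
The annotation places 10 snoRNA genes inside Gas5, which had 0 counts in the 6 embryos together, and the cause was not tested. 

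Before the members, the libraries. The knocked-out gene, Bahd1, kept 2, 10 and 6 counts across replicates 1 to 3 of Bahd1-KO, while the wild-type brains had 1971, 3102 and 3470 (log2 fold change -8.40, SE 0.606, adjusted p 0.0462, edgeR), so the counts of all 6 embryos fit their genotype labels. Bahd1-KO replicate 3 stood apart from the other 5. Gm42418, a gene annotated over ribosomal RNA, took 22.6% of its counts, against 0.120 to 0.394% elsewhere, and mitochondrial ribosomal RNA took 22.1%, against 0.101 to 0.279%. Its summed level of 5 lung markers was 1083 CPM, against 11.1 CPM in Bahd1-KO replicate 2 and 0.198 to 0.465 CPM in the remaining embryos. All 5 were highest in replicate 3, although Scgb1a1 was close in replicate 2 (6.52 and 6.05 CPM). All 6 skeletal muscle markers were also highest in replicate 3 (summed 45.7 CPM, against 1.69 to 7.36). The summed level of 7 neuron markers was 2285 CPM there, against 7277 to 9299 CPM, and that of 8 neural progenitor markers 853 CPM, against 1284 to 1525 CPM. The progenitor markers did not move together, since Fabp7 had 14.7 CPM against 422.8 to 575.3 CPM, while Vim was higher (381.0 against 209.6 to 337.3) and Slc1a3 and Notch1 lay within the range of the others. No marker of these 4 lists was at 0 in it. Of a list of RNAs without a poly(A) tail, all 7 tested genes were also highest in it. Among them were the ribosomal RNAs above and Rn7sk (3487 CPM, against 7.33 to 22.9 CPM elsewhere). Another, Rpph1 (0.315 CPM), had 0 CPM in the other 5 embryos. It reached the minimum count only through replicate 3 and could only be highest there. Protein-coding genes took 53.5% of its counts, against 97.8 to 98.4% in the other embryos. Lung and muscle markers at these levels put the whole-brain label of this library in doubt, and that doubt touches every value with it. The genotype comparison of each lncRNA and the median of each gene list compared by genotype are therefore given with and without this embryo. Bahd1-KO replicate 2, with its 11.1 CPM of lung markers, stays in both.

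Level means CPM, counts per 1000000 counts of the library total, with that total scaled by the trimmed mean of M-values (TMM) so that embryos can be compared. Genotypes were compared with the quasi-likelihood test of edgeR on the counts, and fold changes are Bahd1-KO over Bahd1-WT. None of the 8 lncRNAs tested differed between the genotypes at an adjusted p of 0.05. Over all 24739 genes tested, 1 gene (0.00404%), Bahd1, passed. Adjusted p-values of the lncRNAs ran from 0.696 to 0.984. At an unadjusted p under 0.05 stood 2 of 8, Malat1 (p 0.0394) and Neat1 (p 0.0398, both edgeR), as did 1156 genes (4.67%) over the table. In DESeq2, which called 8 genes (0.0371% of those with an adjusted p), 0 of the 6 lncRNAs with a p-value passed, and the p-values of Malat1 and Neat1 were withheld, as for 758 genes in all, since 1 embryo lay too far from the model. For 0 of 8 lncRNAs did the levels of the genotypes fail to overlap, against 6.71% of all genes tested.

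**Figure D1:**
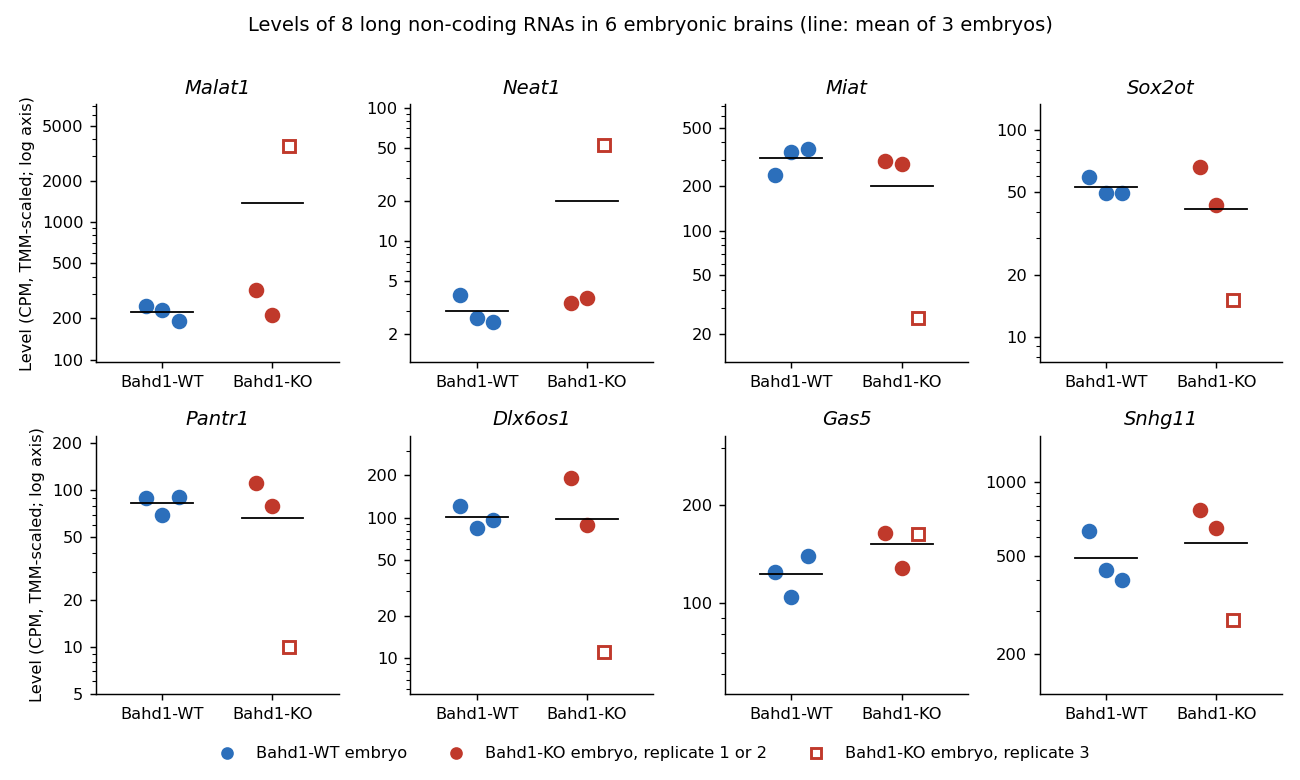
Level of each of 8 lncRNAs (TMM-scaled CPM, log axis) in 3 Bahd1-WT (blue) and 3 Bahd1-KO (red) embryos, with Bahd1-KO replicate 3 as an open square and the group mean as a line. That embryo is the highest of 6 for Malat1 and Neat1 and the lowest for Miat, Sox2ot, Pantr1, Dlx6os1 and Snhg11, and for Gas5 it lies between the other Bahd1-KO embryos.

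Malat1, the speckle RNA, had 319.7, 212.7 and 3566 CPM in Bahd1-KO replicates 1, 2 and 3. The Bahd1-WT embryos had 246.7, 230.1 and 191.4 CPM, in the same order. The first 2 Bahd1-KO embryos lay on either side of the highest Bahd1-WT embryo, and replicate 3 was 14.8 times the mean of the other 5. Group means were 1366 ± 1906 CPM in Bahd1-KO and 222.7 ± 28.4 CPM in Bahd1-WT (SD, n = 3 each), so the spread among Bahd1-KO embryos exceeded the difference. On the log2 scale the fold change was 2.62 (SE 1.04, adjusted p 0.696, edgeR). Without replicate 3 it was 0.24 (SE 0.228, adjusted p 0.981), with a 95% interval of -0.29 to 0.77. Malat1 alone took 0.244% of the counts of replicate 3 (95% Wilson interval 0.243 to 0.245%, counting error only), against 0.0212 to 0.0339% in the other embryos.

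Neat1, the paraspeckle scaffold, had the fewest counts of the 8 over all embryos. Its levels were 3.42, 3.74 and 53.0 CPM in Bahd1-KO and 3.94, 2.65 and 2.46 CPM in Bahd1-WT. As for Malat1, the embryos other than replicate 3 overlapped, and replicate 3 was 16.3 times their mean. The Neat1 counts behind these levels were 224 to 377 in the other 5 embryos and 2860 in replicate 3. Its fold change was 2.73 on the log2 scale (SE 1.09, adjusted p 0.696), and without replicate 3 it was 0.23 (SE 0.303, adjusted p 0.981, 95% interval -0.47 to 0.94).

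Counts of Malat1 were set against those of Neat1 in the same embryo, which cancels the scaling of the library. There were 93.5, 56.8 and 67.3 Malat1 counts per Neat1 count in the Bahd1-KO embryos, while Bahd1-WT had 62.6, 86.7 and 77.6. Replicate 3 lay inside the range of the other 5, although both RNAs were over 10 times higher in it. The log2 ratio differed between genotypes by -0.08 (Bahd1-KO minus Bahd1-WT, exact two-sided permutation p 0.8, where 0.1 is the smallest p that 3 against 3 embryos can give). Frmd8, a coding gene 4.22 kb from Neat1, stayed nearer to the other embryos, with 9.64 CPM in replicate 3 against 4.29 to 9.41 CPM.

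Among 14 genes for speckle and paraspeckle proteins, fixed as a list beside Malat1 and Neat1, 0 passed the test, 6 had a higher and 8 a lower level in Bahd1-KO, and the median log2 fold change was -0.06 (0.06 over all genes tested), or 0.05 without replicate 3. Srsf5, a splicing factor, had the highest value (0.34, adjusted p 0.696, and 0.28 without replicate 3), and Rbm14, a paraspeckle protein, the lowest (-0.70, adjusted p 0.696, and -0.46 without replicate 3). None of the 14 was highest in replicate 3. Sfpq and Nono, which bind Neat1 directly, stood there at 72.4% and 76.3% of their mean in the other embryos. Pspc1, of the same protein family, stood at 41.6%.

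Miat was one of the RNAs that were low in replicate 3. Its levels were 296.8, 285.6 and 25.6 CPM in Bahd1-KO and 237.9, 340.7 and 359.1 CPM in Bahd1-WT. Replicates 1 and 2 fell inside the Bahd1-WT range, and replicate 3 held 8.44% of the mean of the other 5. Means were 202.7 ± 153.4 and 312.6 ± 65.3 CPM (SD, n = 3 each). Between genotypes Miat differed by -0.62 on the log2 scale (SE 0.763, adjusted p 0.782), and without replicate 3 it was -0.11 (SE 0.225, adjusted p 0.981, 95% interval -0.64 to 0.41).

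Of 6 splicing regulators linked to Miat, 0 passed the test, 2 were higher and 4 lower in Bahd1-KO, and the median was -0.34 on the log2 scale, or -0.07 without replicate 3. Those of neurons were low in replicate 3. Celf3, which is found in Miat bodies, held 6.82% of the mean of the other embryos there, Nova1 17.2% and Nova2 13.2%. The rest of the list did not move together. Sf1 itself, the branch point binding protein, was also lowest there but held 74.7%, and Srsf1 held 91.8%. Qk, which also binds ACUAAC elements, was highest there at 188.5% (746.0 CPM against 322.1 to 498.1 CPM). In Bahd1-KO replicates 1 and 2, Celf3 had 66.5 and 136.8 CPM, against 86.7, 206.1 and 168.6 CPM in Bahd1-WT (log2 fold change -1.12 over all embryos, adjusted p 0.696, the lowest of the list, and -0.60 without replicate 3). The coding gene nearest to Miat, Cryba4, a lens crystallin 17.1 kb away, had 63 counts over all embryos. Its log2 fold change was -1.38 (adjusted p 0.696), and -0.99 without replicate 3. It was the 1 of 16 tested neighbours whose genotypes did not overlap, a share near the 6.71% of all genes tested. The gene on the other side, Gm26897, had 2 counts in all and was not tested.

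Sox2ot, Pantr1 and Dlx6os1 come from loci of transcription factors, and these loci differ in their layout. Sox2ot (chr3:34104270-34682619, forward strand) spans 578 kb and encloses Sox2, the factor of neural stem cells, on the same strand. Sox2 shares 0 exon bases with it, so exon counts of each can be assigned. Pantr1 (chr1:42590782-42694842, reverse strand) starts 0.926 kb from Pou3f3, also called Brn1, a factor of upper cortical neurons, which lies on the other strand. Dlx6os1, also called Evf2 (chr6:6820189-6871592, reverse strand), runs across Dlx6 on the opposite strand and lies 6.21 kb from Dlx5, both being factors of inhibitory interneurons. It shares 0 exon bases with Dlx6.

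Levels of Sox2ot were 66.2, 43.5 and 15.1 CPM in Bahd1-KO and 59.4, 49.3 and 49.5 CPM in Bahd1-WT. Replicate 1 was the highest and replicate 3 the lowest of the 6, at 28.1% of the mean of the others. The genotype difference of Sox2ot was -0.34 on the log2 scale (SE 0.491, adjusted p 0.815), and 0.04 without replicate 3 (SE 0.235, adjusted p 0.989, 95% interval -0.50 to 0.58). Sox2 had 99.8, 89.8 and 14.0 CPM in Bahd1-KO and 83.5, 60.7 and 91.9 CPM in Bahd1-WT. Counts of Sox2ot per Sox2 count were 0.664, 0.485 and 1.08 in the Bahd1-KO embryos, while Bahd1-WT had 0.711, 0.812 and 0.538, so replicate 3 lay above the other 5. The log2 ratio differed between genotypes by 0.05 (exact permutation p 1.0).

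Pantr1 had 111.6, 79.4 and 9.95 CPM in Bahd1-KO and 89.1, 70.0 and 90.4 CPM in Bahd1-WT. Again replicates 1 and 2 overlapped the Bahd1-WT embryos, and replicate 3 held 11.3% of the mean of the others. For Pantr1 the genotypes differed by -0.31 on the log2 scale (SE 0.721, adjusted p 0.888), and 0.18 without replicate 3 (SE 0.224, adjusted p 0.981, 95% interval -0.34 to 0.70). Pou3f3 moved with it, with 343.3, 258.2 and 36.7 CPM in Bahd1-KO and 280.6, 276.3 and 315.3 CPM in Bahd1-WT. The counts of Pantr1 per Pou3f3 count were 0.325, 0.307 and 0.271 in the Bahd1-KO embryos, while Bahd1-WT had 0.317, 0.253 and 0.287. This was the narrowest of the ratios within Bahd1-KO (SD of the log2 ratio 0.134), and replicate 3 lay inside the range of the other 5. Its difference between genotypes was 0.08 (exact permutation p 0.6).

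Dlx6os1 had the widest spread outside replicate 3, with 191.4, 89.1 and 11.1 CPM in Bahd1-KO and 121.1, 84.8 and 96.8 CPM in Bahd1-WT. Replicate 1 was the highest of all embryos and replicate 3 the lowest, with 9.47% of the mean of the others. The genotype difference, on the log2 scale, was -0.05 (SE 0.813, adjusted p 0.984), and 0.45 without replicate 3 (SE 0.318, adjusted p 0.981, 95% interval -0.28 to 1.19). Dlx5 had 14.3, 17.4 and 1.04 CPM in Bahd1-KO and 13.1, 22.9 and 23.1 CPM in Bahd1-WT. Dlx6 had 15.4, 12.7 and 1.45 CPM in Bahd1-KO and 13.7, 12.5 and 15.8 CPM in Bahd1-WT. Per count of Dlx5 and Dlx6 together there were 6.45, 2.96 and 4.45 Dlx6os1 counts in Bahd1-KO, while Bahd1-WT had 4.52, 2.39 and 2.49, a difference of 0.55 on the log2 scale (exact permutation p 0.3). Gad1 and Gad2, which make the transmitter GABA and which Dlx6os1 is known to affect, were closer to the other embryos in replicate 3, at 63.8% and 89.3% of their mean.

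**Figure D2:**
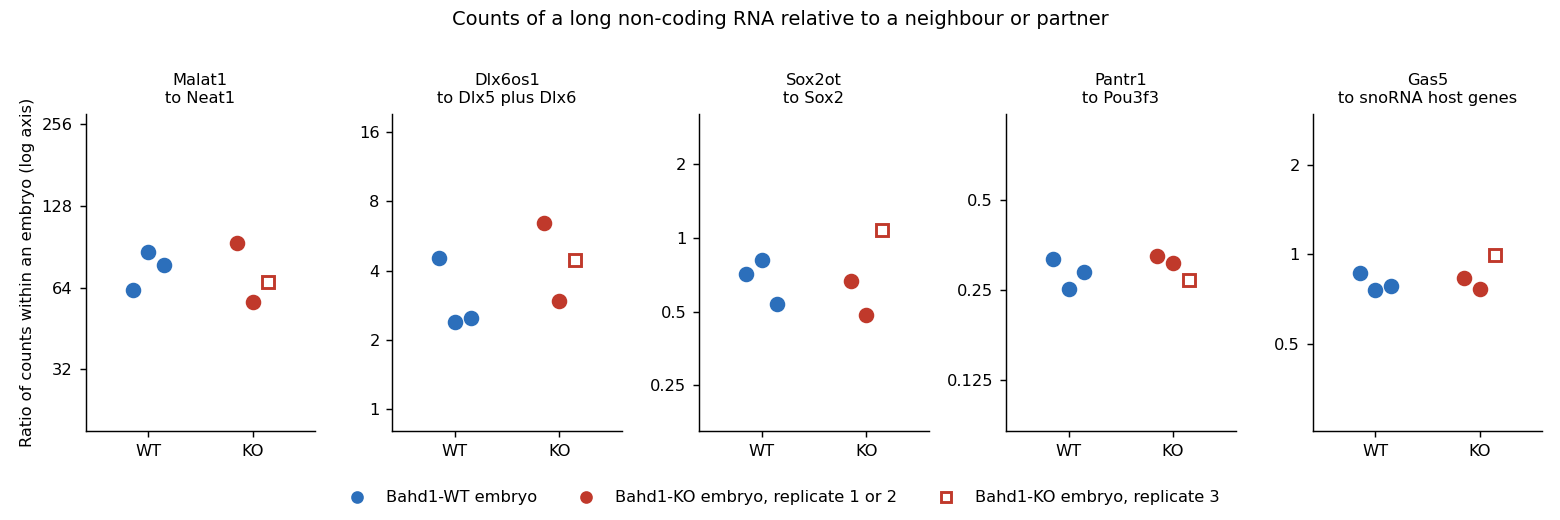
Counts of a lncRNA divided by those of its neighbour or partner in the same embryo (log axis), for 3 Bahd1-WT (blue) and 3 Bahd1-KO (red) embryos, with Bahd1-KO replicate 3 as an open square. For Malat1 to Neat1, Dlx6os1 to Dlx5 plus Dlx6 and Pantr1 to Pou3f3 the square lies inside the range of the other 5 embryos, and for Sox2ot to Sox2 and Gas5 to snoRNA host genes it lies above it.

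The neighbouring factors were the part of the locus that moved with these RNAs. Of 10 neighbour and partner factors, 0 passed the test and 9 had a lower level in Bahd1-KO, and the median was -0.47 on the log2 scale. Without replicate 3 it was 0.01, where 5 were higher and 5 lower. All but Gad2 were lowest in replicate 3. The coding genes on the far sides of these loci stayed near the others in that embryo. Dnajc19 and Atp11b, at the ends of Sox2ot, held 103.8% and 133.1% of their mean in the other 5, and Sem1, beside Dlx6os1, 148.4%. Tmem182, on the far side of Pantr1 at 1734 kb, was higher, with 2.98 CPM against 0.109 to 0.157 CPM. Of the 16 tested neighbours of all 8 lncRNAs, 0 passed the test.

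Gas5 was the lncRNA whose level changed least in replicate 3. It had 164.0, 127.8 and 162.8 CPM in Bahd1-KO and 124.6, 104.5 and 139.5 CPM in Bahd1-WT. The highest 2 embryos were both Bahd1-KO and the lowest 2 were both Bahd1-WT, while replicate 2 of Bahd1-KO fell within the Bahd1-WT range. Means were 151.5 ± 20.6 and 122.9 ± 17.6 CPM (SD, n = 3 each), a difference larger than either SD. As a log2 fold change this was 0.30 (SE 0.236, adjusted p 0.697, 95% interval -0.25 to 0.86), and 0.23 without replicate 3 (SE 0.209, adjusted p 0.981). Set against the summed counts of 16 other snoRNA host genes, the ratio was 0.830, 0.767 and 0.992 in the Bahd1-KO embryos and 0.862, 0.761 and 0.780 for Bahd1-WT, a difference of 0.10 on the log2 scale (exact permutation p 0.6). Adjusted over the 5 ratios, every permutation p was 1.0.

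The 15 tested snoRNA host genes of the list gave 0 calls, with 9 higher and 6 lower in Bahd1-KO and a median of 0.07 on the log2 scale, against 0.06 for all genes, or 0.18 without replicate 3. Snhg18 had the highest value (1.17, adjusted p 0.696), from 25.9 CPM in replicate 3 against 4.86 to 6.94 CPM in the others, and was 0.19 without that embryo. Snhg8 had the lowest (-0.37, adjusted p 0.813, and -0.25 without replicate 3). Snhg1, a host of several box C/D snoRNAs, had 39.5, 27.6 and 39.6 CPM in Bahd1-KO and 24.8, 20.6 and 27.2 CPM in Bahd1-WT (log2 fold change 0.55, adjusted p 0.696, and 0.45 without replicate 3). Its Bahd1-KO embryos all lay above its Bahd1-WT embryos. The genotypes also failed to overlap for 6.71% of all genes tested, and Snhg1 was named after its values were seen. Of 8 genes of nonsense-mediated decay, which degrades Gas5, 0 passed the test, 3 were higher and 5 lower, with a median of -0.08, or -0.14 without replicate 3. Upf1, its central helicase, had the lowest value (-0.61, adjusted p 0.696, and -0.48 without replicate 3). Beside Gas5, Zbtb37, which overlaps its annotated start on the other strand, had 72.5 CPM in replicate 3 and 77.6 to 149.0 CPM in the others.

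Snhg11 (chr2:158375638-158386145, forward strand) shares chromosome 2 with Bahd1, at a distance of 39451 kb. It had the highest level per length of the 8 in Bahd1-WT. Its levels were 771.7, 648.3 and 274.6 CPM in Bahd1-KO and 634.4, 439.1 and 398.4 CPM in Bahd1-WT. Replicates 1 and 2 of Bahd1-KO lay above all Bahd1-WT embryos, and replicate 3, at 47.5% of the mean of the other 5, lay below all of them. With all embryos its log2 fold change was 0.20 (SE 0.419, adjusted p 0.873). Without replicate 3 it was 0.52 (SE 0.242, unadjusted p 0.0665, adjusted p 0.981, 95% interval -0.04 to 1.08), the lowest unadjusted p of the 8. It was then the 1 lncRNA of 8 whose genotypes did not overlap, against 10.7% of 23334 genes tested. Of the genes on its sides, Ralgapb, 23.7 kb away, had 126.3 CPM in replicate 3 and 123.1 to 176.5 CPM in the others. Lbp, 42.8 kb away, had 9.71 CPM and 2.06 to 3.33 CPM.

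**Figure D3:**
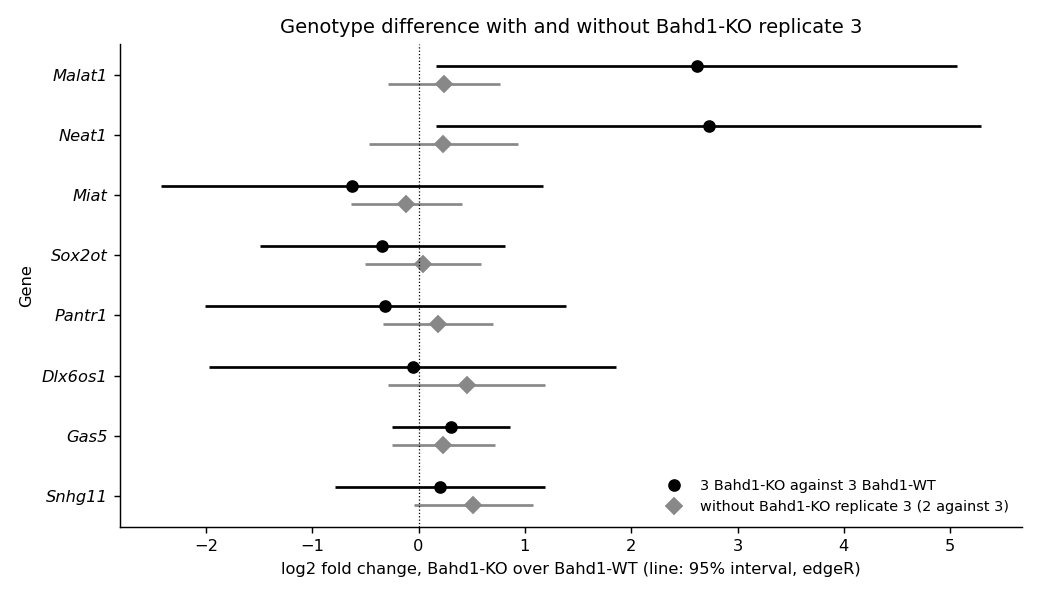
Log2 fold change of each lncRNA, Bahd1-KO over Bahd1-WT, with its 95% interval from edgeR, for all 6 embryos (black circles) and without Bahd1-KO replicate 3 (grey diamonds). Without that embryo all 8 intervals include 0, the values lie between -0.11 and 0.52, and Malat1 and Neat1 move from 2.62 and 2.73 to 0.24 and 0.23.

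Over the 8 lncRNAs, the median log2 fold change was 0.07, with 4 higher and 4 lower in Bahd1-KO. It was 0.34 over the 5530 annotated lncRNA genes tested and 0.06 over all genes. Without replicate 3 the median of the 8 was 0.23, with 7 higher and 1 lower, that of 4785 lncRNA genes 0.12 and that of all genes -0.01. In this comparison of 2 Bahd1-KO with 3 Bahd1-WT embryos, 0 of 8 lncRNAs passed an adjusted p of 0.05 and 0 had an unadjusted p under 0.05, while 4 genes (0.0171%) and 345 genes did so among 23334. Of the 5530 annotated lncRNA genes tested, 0 passed in the 6 embryos and 446 had an unadjusted p under 0.05 (edgeR), beside 1156 of all 24739 genes. DESeq2 called 1 lncRNA gene, Gm14089, an antisense transcript that is no member.

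Levels per length set the lncRNAs beside each other, as far as poly(A) selection captured them. In Bahd1-WT, in TMM-scaled CPM per kb of exon (mean ± SD, n = 3), Snhg11 came first with 57.6 ± 14.8. Then followed Miat with 33.6 ± 7.02, Gas5 with 32.7 ± 4.67 and Malat1 with 31.9 ± 4.07, whose ranges over embryos overlapped, so that their order is not resolved. Dlx6os1 with 19.5 ± 3.57 and Pantr1 with 18.6 ± 2.57 overlapped each other and lay below the first 4. Sox2ot had 4.54 ± 0.497 and Neat1 0.145 ± 0.0386, each apart from its neighbours in the order. Among the 5530 annotated lncRNA genes, a class without Snhg11, Miat, Gas5 and Malat1 took ranks 11, 12 and 13, and Neat1 rank 1939. Exon length here is the union of all annotated forms, and where a brain uses only a short form the level per length is too low. For Neat1 the union is 20.8 kb and the short form 3.00 kb. The long forms of Malat1 and Neat1 are known to lack a poly(A) tail. Their places in this order may therefore reflect capture as well as abundance, and this was not tested.

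**Figure D4:**
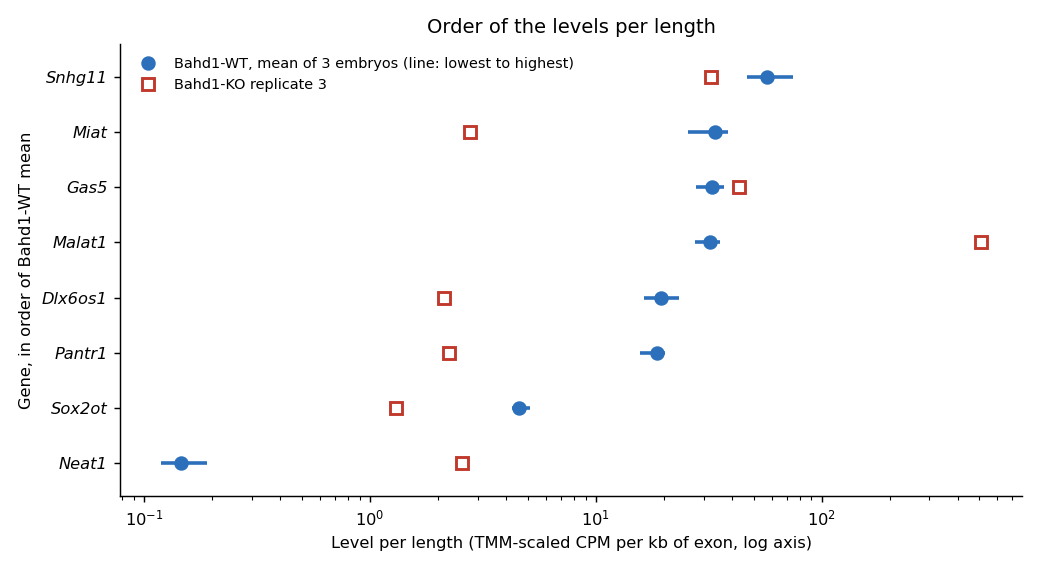
Level per length of each lncRNA (TMM-scaled CPM per kb of exon, log axis), as the mean (blue point) and range (blue line) of 3 Bahd1-WT embryos, and in Bahd1-KO replicate 3 (red square). In Bahd1-WT, Miat, Gas5 and Malat1 overlap near 32 to 34, while in replicate 3 Malat1 leads with 510.6 and Miat has 2.76.

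Replicate 3 was set beside the other 5 embryos for every gene, on the scale of log2(CPM + 0.5). Malat1 (3.91) and Neat1 (3.86) were at least 4-fold (2 on this scale) above the mean of the others, as were 5.73% of all genes tested. Miat (-3.53), Dlx6os1 (-3.27) and Pantr1 (-3.07) were at least 4-fold below, as were 3.65%. Sox2ot (-1.78), Snhg11 (-1.03) and Gas5 (0.32) lay between. The 5th and 95th percentiles of all genes were -1.77 and 2.13. The embryo was seen to stand apart in these data, so these are descriptions of 1 library with no test.

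Lists of other lncRNAs gave the same comparison a wider base. Of 18 tested lncRNAs beside neural genes, 13 were lowest and 4 highest in replicate 3, with a median of -1.57. The 4 were Zeb2os (4.28 CPM against 2.34 to 3.30) and the scarce Foxd2os, Nkx2-2os and Dlx4os, at 1.19, 0.389 and 0.241 CPM. The lowest was Six3os1, beside the forebrain factor gene Six3, with 0.760 CPM against 23.7 to 29.9 CPM. Dlx1as, on the other Dlx pair, had 1.02 CPM against 16.4 to 24.4 CPM, Sox1ot 4.65 CPM against 47.3 to 69.8 CPM, and Mir124-2hg, the host of a neuronal microRNA, 18.1 CPM against 110.8 to 195.5 CPM. Of 12 broadly expressed lncRNAs, 7 were highest and 3 lowest in it, with a median of 0.32. Kcnq1ot1, the imprinted antisense transcript of Kcnq1, had 104.2 CPM there against 16.4 to 40.7 CPM, and Tug1 236.6 CPM against 253.2 to 413.4 CPM. None of the lncRNAs of either list passed the genotype test. By genotype, the first list had 7 higher and 11 lower (median log2 fold change -0.21, and 0.10 without replicate 3), with Dlx4os highest (2.31, adjusted p 0.697) and Six3os1 lowest (-0.71, adjusted p 0.806, and -0.16 without replicate 3). Dlx4os reached the minimum count only through replicate 3 and was not tested without it. The second had 12 higher and 0 lower, or 9 higher and 3 lower without replicate 3. Its median was 0.29, and 0.25 without replicate 3, where the annotated lncRNA genes tested had 0.34 and 0.12. Kcnq1ot1 was its highest (1.29, adjusted p 0.696, edgeR, and 0.45 without replicate 3). Tug1 was its lowest (0.08, adjusted p 0.938, edgeR, and 0.23 without replicate 3).

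**Figure D5:**
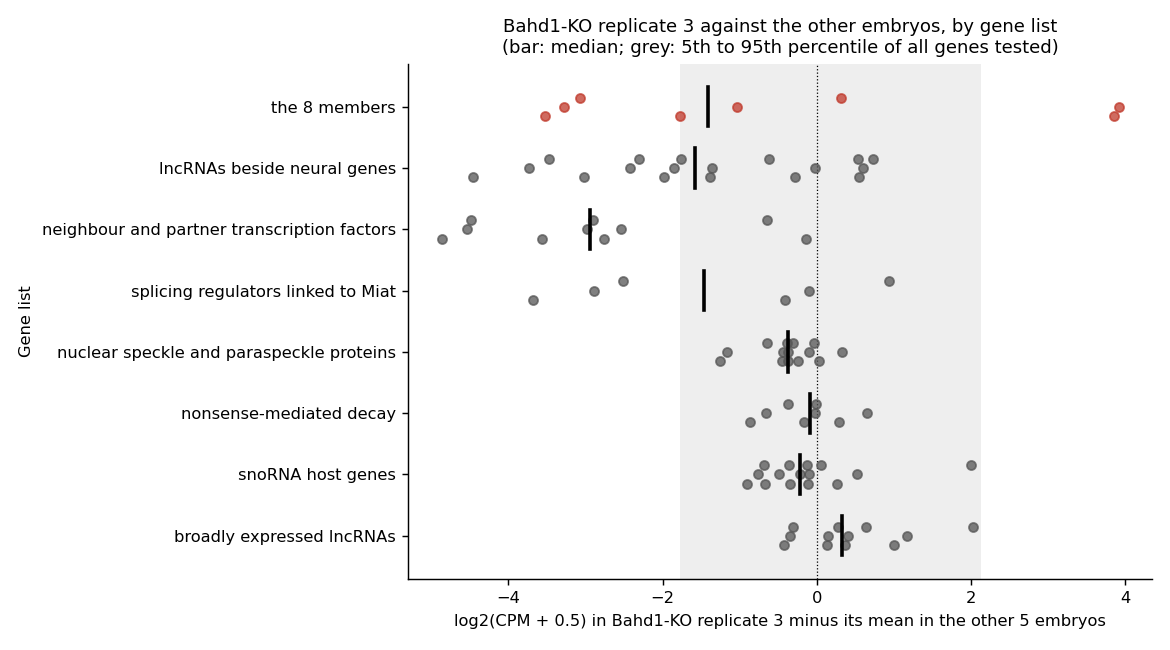
Difference of log2(CPM + 0.5) between Bahd1-KO replicate 3 and the mean of the other 5 embryos for each tested gene of 8 lists (points), with the median (bar) and the 5th to 95th percentile of all genes tested (grey, -1.77 to 2.13). Medians are -1.40 for the 8 lncRNAs, -1.57 for lncRNAs beside neural genes and -2.94 for neighbour factors, and lie between -0.37 and 0.32 for the lists of speckle proteins, decay factors, snoRNA hosts and broadly expressed lncRNAs.

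Beside these values stand the cell markers of the same embryo. Neuron markers did not move as 1 block, since Dcx, of young neurons, had 33.0 CPM in replicate 3 against 1865 to 3713 CPM, and Tubb3 26.1 CPM against 364.2 to 1556 CPM. Snap25, of synapses, was higher (909.8 CPM against 153.5 to 285.4), and Syt1 (386.0 against 267.8 to 468.1) and Rbfox3 (54.8 against 48.5 to 92.5) were within the range of the others. Of 9 genes of the ventral forebrain and its interneurons, 7 were lowest in it, and Nkx2-1, which lung also uses, was the highest (180.5 CPM against 13.3 to 23.5). Summed levels were 657 CPM against 169.6 to 227 CPM for 5 endothelial markers, 1119 against 336.0 to 526 CPM for 5 markers of dividing cells, 247.8 against 112.4 to 156.3 CPM for 5 of the oligodendrocyte lineage, and 54.8 against 29.5 to 52.1 CPM for 5 of microglia. The oligodendrocyte sum was carried by Pdgfra (214.5 CPM against 60.2 to 86.6), while Olig1 and Olig2 were lowest in replicate 3 and Sox10 and Cspg4 lay within the range of the others. Blood markers (402.5 CPM, 6 genes) lay within the range of the others (131.2 to 588.7), and liver markers (64.98 CPM, 5 genes) below it (239.2 to 699.9). Nearly all of the liver sum was Ttr, which the choroid plexus also makes (56.0 CPM against 237.8 to 694.7), while Alb was highest in replicate 3 (5.67 against 0.0567 to 3.80) and Afp and Apoa1 lay within the range of the others. The part of these cell types, and of the untailed RNAs in that library, in the levels of the lncRNAs was not tested.

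The gene whose levels over the 6 embryos were most like those of each lncRNA was sought among 10166 genes of at least 10 CPM on average, by the root mean square (RMS) difference of centred log2 levels. For Malat1 this was Filip1l (RMS 0.108) and for Neat1 Cd44 (0.112), a cell surface receptor for hyaluronan. Both had a single high embryo, replicate 3, with 87.0 and 94.9 CPM. They passed the minimum of 10 CPM only through it, with at most 8.61 and 8.15 CPM in the other 5. The closest to Miat was Gpc2 (0.072), a glypican of developing neurons, and to Sox2ot St8sia1 (0.091), the enzyme that makes the ganglioside GD3. Pantr1 was closest to Pou3f2 (0.098), the sister gene of its own neighbour Pou3f3, with 247.0, 161.0 and 19.0 CPM in Bahd1-KO and 203.3, 144.1 and 177.2 CPM in Bahd1-WT. For Dlx6os1 it was 9130024F11Rik (0.119), another non-coding gene, for Gas5 Ssbp1 (0.053), a mitochondrial DNA binding protein, and for Snhg11 Azin1 (0.113), a regulator of polyamine synthesis. In 7 of the 8 pairs, all but that of Gas5, replicate 3 was the highest or the lowest embryo of both genes. Each gene was chosen by its levels in these same 6 embryos, so this follows largely from the choice.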

How the data were processed

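The authors' deposited file held raw read counts per gene, with 1 column per embryo. Per the labels and the study's methods, RNA was extracted with an RNeasy kit (Qiagen), selected for poly(A), and sequenced from stranded libraries. Kits of this kind are known to lose RNAs under 200 nucleotides. Reads were trimmed (cutadapt 1.11), aligned to GRCm38 and counted over exons by strand (featureCounts 1.4.6-p3). STAR 2.5.0a and TopHat2 are both named for alignment, and which made the counts is not given in the sources used here. Replicates are separate embryos. The study took Bahd1-KO replicate 3 as a possible outlier and repeated its test without it.

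Genes with at least 10 summed counts were tested with edgeR 4.0.16 (quasi-likelihood, TMM, genotype alone, R 4.3.3), two-sided, with Benjamini-Hochberg adjustment over all genes and a threshold of 0.05. SE is the absolute log2 fold change over the root of F. Ratios used exact permutation tests over embryos. Alternatives were other filters, scalings, DESeq2 1.42.0, voom (limma 3.58.1), a replicate block and each embryo left out. The test script was tested on simulated data. Members, lists and tests were chosen with earlier results of these data known.

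The text names all members, their nearest coding genes on each side, partner list members, the gene most like each member, and of other lists each called gene or else the highest and lowest. Others were chosen after their values were seen. Some neighbours are not reported here. GENCODE M21 matched 53706 of 53801 genes, and promoter sequence came from RefSeq (GRCm38.p6). For 5 of the 9 symbols a promoter was found there.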

Additional observations from a re-analysis of the deposited data

How the results depend on the processing

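Under all 17 alternative fits, 0 of the 8 lncRNAs passed the adjusted threshold, and 121 of 136 fold changes kept their direction. Dlx6os1 turned to 0.042 with upper-quartile factors, and with total counts no lncRNA turned. These scalings put the median of all genes at 0.17 and -0.11, against 0.06 with TMM. With voom quality weights Sox2ot, Pantr1 and Dlx6os1 turned to 0.048, 0.16 and 0.42, and in DESeq2 without Bahd1-KO replicate 3 to 0.041, 0.18 and 0.46. Leaving out each embryo in turn gave Malat1 0.24 to 3.09, Neat1 0.23 to 3.23, Miat -1.005 to -0.11, Sox2ot -0.84 to 0.04, Pantr1 -0.90 to 0.18, Dlx6os1 -1.01 to 0.45, Gas5 0.18 to 0.39 and Snhg11 -0.087 to 0.52. Bahd1-KO replicate 3 set the end nearest 0 for Malat1, Neat1 and Miat, and Snhg11 turned without Bahd1-KO replicate 1 and Dlx6os1 also without Bahd1-WT replicate 1 (0.06).

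The count of genes called was 1 in the reported fit, 8 in DESeq2, 11 in DESeq2 without replicate 3, 6 in voom, 0 with ribosomal RNA and mitochondrial genes removed (1092 at an unadjusted p under 0.05, edgeR) and 0 to 4 with an embryo left out. For lncRNA genes the count was 0 in the reported fit, 1 in DESeq2 with and without replicate 3, 1 in voom and 0 to 1 with an embryo left out, each time Gm14089. Ratio differences ranged over left-out embryos from -0.28 to 0.081 for Malat1 to Neat1, 0.28 to 0.85 for Dlx6os1, -0.26 to 0.32 for Sox2ot, -0.006 to 0.16 for Pantr1 and -0.003 to 0.18 for Gas5, with exact permutation p of at least 0.2.

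Replicate numbers did not pair the embryos (correlations of deviations 0.125, 0.176 and -0.088). Adding the replicate number as a replicate block left 0 genes past the threshold (517 had an unadjusted p under 0.05, edgeR), and 16 with the block and without replicate 3, of which 2 were lncRNA genes, Gm14089 and Gm42418. In that last fit Miat turned to 0.016, Pantr1 to 0.24 and Dlx6os1 to 0.35. The causes of these changes were not tested. With 2 Bahd1-KO and 3 Bahd1-WT embryos, the 95% intervals without replicate 3 leave differences of up to 1.19 on the log2 scale for Dlx6os1 and 1.08 for Snhg11 unresolved, and Neat1 rests on 224 to 377 counts in 5 of 6 embryos.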
